A study of Mus musculus with 16 samples.

Results

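The genes described here are 10 regulators of the primitive streak and of early mesoderm: the Wnt ligand genes Wnt3 and Wnt3a, the T-box genes T (brachyury, also written Tbxt), Eomes and Tbx6, the homeobox genes Mixl1, Gsc and Evx1, and the basic helix-loop-helix genes Mesp1 and Msgn1. They were taken from a list of gene symbols. They occupied 11 RefSeq rows (Eomes has 2) of the 33702 RefSeq rows of the expression table, or 10 of its 24238 genes.

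The samples were embryoid bodies, free-floating aggregates of differentiating cells, made from the R1 mouse embryonic stem (ES) cell line. The EBs were grown for 4 days in medium without LIF, the cytokine that keeps ES cells undifferentiated, and were taken either then (day 0, before retinoic acid) or after 4 more days with 2 µM retinoic acid (RA, day 4). The comparison asks how the genes of this program stood before and after RA. The day 4 EBs were also 4 days older, and no EBs of that age without RA are among the samples used here, so treatment and age cannot be told apart. Each day had 2 biological replicates, called RNA sample 1 and RNA sample 2 here, and each of these 4 RNA samples was divided into 4 vials that received synthetic spike-in mix 1, 2 or 3 or, as mix 4, none of these mouse transcripts, which gave 16 libraries. The 4 vials are splits of 1 RNA, so a day is represented by n = 2, and all libraries come from 1 cell line. A vial is named below by its mix.

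Gastrulation in the mouse starts with the primitive streak, where epiblast cells leave the epithelium and become mesoderm and definitive endoderm. Nodal and Wnt signals induce the streak, Wnt3 is the ligand the embryo needs to form it, and T, Eomes and Mixl1 are switched on there in response. As cells leave the streak, Mesp1 marks nascent cardiac and cranial mesoderm, whereas Wnt3a, Tbx6 and Msgn1 act in the posterior streak and the presomitic mesoderm. In culture, EBs without LIF pass through a stage that expresses these genes, and RA is widely used to direct EBs towards other fates.

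In the GRCm38 build the genes lie at chr11:103774175-103818021 (Wnt3, plus strand), chr11:59248036-59290751 (Wnt3a, minus), chr17:8434423-8442496 (T, plus), chr9:118478186-118486132 (Eomes, plus), chr7:126781483-126785548 (Tbx6, plus), chr1:180693043-180697034 (Mixl1, minus), chr12:104471209-104473236 (Gsc, minus), chr6:52313498-52318389 (Evx1, plus), chr7:79792241-79793590 (Mesp1, minus) and chr12:11208382-11208948 (Msgn1, minus). RefSeq promoter windows, from 250 bases before to 50 bases after the annotated start, were given for 9 of the 10 genes, all but Mixl1. They were searched on both strands for 3 forms of the TCF/LEF element, through which beta-catenin acts on Wnt target genes. The first form was CTTTGAT, and the second differed from it only in its next-to-last letter and was CTTTGTT. The third form searched was CTTTGAA, and the core of the T-box element was searched as GGTGTGA. No match of one motif overlapped with a match of the other in these windows. A TCF/LEF form was present in 4 of the 9 windows (T, Mesp1, Msgn1 and Wnt3) and in 13.9% of the 32851 mouse promoter windows in the table. The T-box core was present in 1 of the 9 (Mesp1, from base 6 of the transcript, on the opposite strand) and in 4.0% of all windows. In Wnt3 the match began at base 19 of the transcript.

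The 250 bases upstream of T, Mesp1 and Msgn1 are shown 5′ to 3′ on the strand of the gene, since these are the members with a TCF/LEF form before the start, and capitals mark those matches (TTCAAAG and ATCAAAG are the forms read from the other strand). They were chosen after the values were seen. The sequences are from RefSeq (GRCm38.p6), at chr17:8434173-8434422 (T, plus strand), chr7:79793591-79793840 (Mesp1, minus strand) and chr12:11208949-11209198 (Msgn1, minus strand).
T: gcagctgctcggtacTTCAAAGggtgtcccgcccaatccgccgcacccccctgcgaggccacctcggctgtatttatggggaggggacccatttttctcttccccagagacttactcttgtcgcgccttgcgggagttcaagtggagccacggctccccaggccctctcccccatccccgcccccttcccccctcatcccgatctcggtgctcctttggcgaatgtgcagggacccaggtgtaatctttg
Mesp1: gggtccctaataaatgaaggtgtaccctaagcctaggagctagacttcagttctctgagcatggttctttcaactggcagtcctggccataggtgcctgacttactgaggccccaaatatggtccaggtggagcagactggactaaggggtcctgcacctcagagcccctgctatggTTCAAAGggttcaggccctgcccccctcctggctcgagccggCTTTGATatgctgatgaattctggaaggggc
Msgn1: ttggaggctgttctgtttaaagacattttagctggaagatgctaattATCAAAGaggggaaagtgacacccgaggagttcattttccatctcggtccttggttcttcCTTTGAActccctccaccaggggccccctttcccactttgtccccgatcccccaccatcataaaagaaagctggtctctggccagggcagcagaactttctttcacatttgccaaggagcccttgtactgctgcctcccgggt
The matches began 235 bases before the start in T, 73 and 31 bases before it in Mesp1 and 203 and 143 bases before it in Msgn1.

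Expression is given in FPKM (fragments per kilobase of transcript, scaled to the mapped fragments of the library), which is a level per transcript length. According to the labels, 39000000 to 59000000 reads were sequenced per library. The smallest value above 0 in a library was 0.009 to 0.011 FPKM, the depth behind a single value is not in the table, and a gene without signal is described as listed at 0. The 2 vials of mixes 3 and 4 of day 0 RNA sample 2 stood apart from the other libraries: relative to the mix 1 and 2 vials of the same RNA, the median gene with a transcript GC content over 60 and up to 65% was lower by 2.48 on the log2 scale and the median gene of at most 40% GC was higher by 0.98, over 448 and 551 genes. Between the corresponding vials of the other 3 RNA samples the medians of these ranges differed by at most 0.17. Results are therefore given with and without these 2 vials. In bulk RNA, fewer cells that express a gene and less RNA per cell cannot be told apart.

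All 10 genes were lower at day 4 than at day 0. With limma over the mean of each RNA sample, 10 of 10 fell at an adjusted p of at most 0.05 and 0 rose, whereas 14.5% of the 20553 genes tested fell, 16% rose and 30.4% changed in either direction. The median difference of the 10 genes on the log2(FPKM + 0.1) scale was -5.75, beside -0.03 over all genes tested. Their summed level was 136.0 to 191.5 FPKM in the 8 day 0 libraries and 0.753 to 1.02 FPKM in the 8 day 4 libraries. Without the 2 vials that stood apart, a choice made after seeing the data, 10 of 10 fell, the median was -5.97, and 33.5% of all genes fell and 27.1% rose. With the replicate as a block (a paired fit) the 10 calls held, with adjusted p-values of 4.87e-07 to 0.000430, while the number of all genes called rose from 6255 to 10583. With only the vials of mixes 3 and 4, 4 of the 10 passed (T, Mixl1, Eomes and Wnt3). In that fit 337 of the 20553 genes tested fell and 994 rose. Without either RNA sample of day 4, which left 1 for that day, calls were lost for all genes tested, but the 10 stayed lower.

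**Figure D1:**
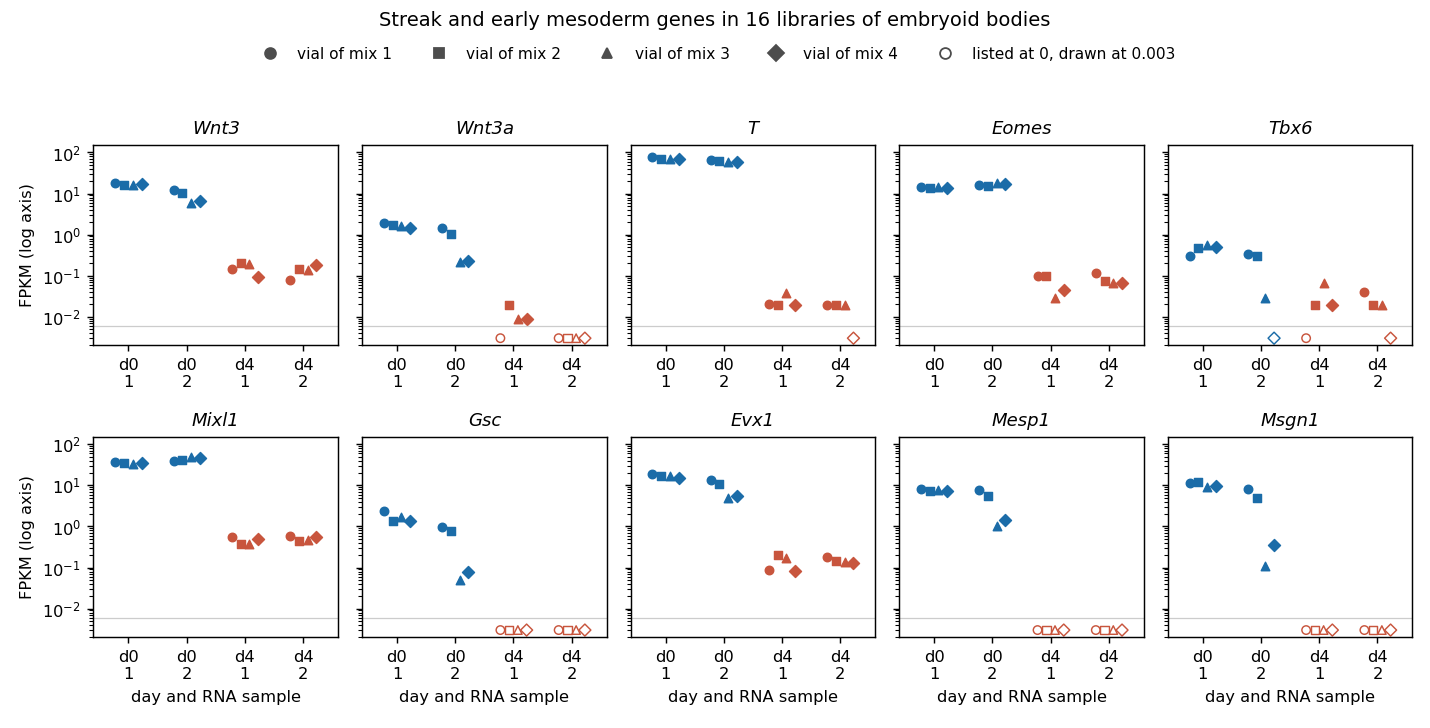
FPKM (log axis) of the 10 genes in the 16 libraries, with day 0 (d0, blue) and day 4 (d4, red) and RNA samples 1 and 2 along the x axis; each symbol is 1 vial, its shape the spike-in mix, and open symbols are values listed at 0. Every day 0 value lies above every day 4 value of the same gene except in Tbx6. The share of all genes with such a separation was not counted. The mix 3 and 4 vials of day 0 RNA sample 2 lie lowest within day 0 for 8 genes but highest for Mixl1 and Eomes.

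Of the ligands, Wnt3 stood at 18.2, 15.9, 15.8 and 16.7 FPKM in the vials of mixes 1 to 4 of day 0 RNA sample 1 and at 12.5, 10.4, 5.83 and 6.69 FPKM in those of RNA sample 2. At day 4 the 8 values ran from 0.078 to 0.201 FPKM with a median of 0.145. The groups did not overlap, and the lowest day 0 library was 29.0 times the highest day 4 library. Over the RNA samples the mean was 12.8 ± 5.51 FPKM before RA and 0.146 ± 0.019 FPKM after it (SD, n = 2), which is 87.3-fold lower. On the log2(FPKM + 0.1) scale Wnt3 fell by 5.64 (SE 0.40, limma adjusted p = 0.0056). Wnt3a, which sustains the posterior streak and paraxial mesoderm after Wnt3 has acted, was the weaker ligand. Its day 0 values were 1.89, 1.75, 1.64 and 1.48 FPKM in RNA sample 1 and 1.43, 1.06, 0.216 and 0.232 FPKM in RNA sample 2. At day 4 it was listed at 0 in 5 of 8 libraries and reached 0.019 FPKM. The groups did not overlap, and the difference was 3.55 lower at day 4 (SE 0.43, limma adjusted p = 0.013), a call that was lost in 5 of 16 alternative settings.

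The T-box gene T, the transcription factor that mesoderm needs to form and to leave the streak, had the highest level of the 10. Its day 0 values were 78.4, 70.4, 71.0 and 70.9 FPKM in RNA sample 1 and 66.5, 62.3, 57.1 and 59.1 FPKM in RNA sample 2. At day 4 it was listed at 0 in 1 library and stood at 0.019 to 0.037 FPKM in the other 7, within a few steps of the smallest value in the table. The lowest day 0 library was 1544 times the highest day 4 library. T fell by 9.13 on the log2(FPKM + 0.1) scale (SE 0.23, limma adjusted p = 0.0047), and no gene of the 20553 tested had a lower estimate. At day 0 it ranked 1321 of 18947 genes with a level above 0.

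Eomes, which acts in the anterior streak and specifies cardiac mesoderm and definitive endoderm, had day 0 values of 14.4, 13.8, 14.2 and 13.3 FPKM in RNA sample 1 and 16.3, 15.3, 18.2 and 17.4 FPKM in RNA sample 2. The day 4 values were 0.028 to 0.117 FPKM, and the mean was 207-fold lower. It fell by 6.47 (SE 0.25, limma adjusted p = 0.0047). The 2 Eomes transcripts were not equally abundant. NM_010136 had means of 11.3 and 14.5 FPKM in day 0 RNA samples 1 and 2, and NM_001164789 had 2.65 and 2.33 FPKM, or 19.0% and 13.8% of the gene's FPKM. Between the vials of RNA sample 1 that share ran from 14.9% to 26.2%, a range that includes the share of 1 vial of RNA sample 2 (15.7%), so the shares of the RNA samples overlapped. When rows were tested one by one, NM_010136 fell by 6.37 and NM_001164789 fell by 4.47 on the log2 scale, with limma adjusted p-values of 0.0155. At day 4 each value of either transcript was at most 0.117 FPKM, too low to compare shares.

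Tbx6, which directs presomitic mesoderm away from a neural fate, had the lowest day 0 level of the 10. It stood at 0.293, 0.485, 0.570 and 0.495 FPKM in RNA sample 1 and at 0.345, 0.305, 0.029 and 0 FPKM in RNA sample 2. The day 4 values were 0 to 0.065 FPKM, so the mix 3 and 4 vials of RNA sample 2 overlapped with day 4 and the other 6 day 0 libraries did not. Tbx6 fell by 1.67 on the log2(FPKM + 0.1) scale (SE 0.39, limma adjusted p = 0.048), and by 2.00 (SE 0.17, adjusted p = 0.0029) without the 2 vials. Its call was the weakest of the 10, and it was lost in 9 of 16 alternative settings, with adjusted p-values up to 0.594.

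Mixl1, a homeobox factor of the streak that acts in mesendoderm, stood at 37.7, 35.4, 33.6 and 34.2 FPKM in day 0 RNA sample 1 and at 38.8, 40.8, 48.5 and 46.0 FPKM in RNA sample 2. At day 4 it kept the highest level of the 10, from 0.374 to 0.583 FPKM with a median of 0.481. The mean was 81.7-fold lower, and the difference was 6.08 lower on the log2 scale (SE 0.22, limma adjusted p = 0.0047). Evx1, which acts in the posterior streak, had 18.9, 17.2, 16.9 and 15.4 FPKM in day 0 RNA sample 1 and 13.7, 11, 4.95 and 5.65 FPKM in RNA sample 2. Its day 4 values were 0.084 to 0.201 FPKM, the mean was 91.5-fold lower, and the difference was 5.68 lower (SE 0.41, limma adjusted p = 0.0058). The ranges of Evx1 and Wnt3 overlapped on both days.

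Gsc, a marker of the anterior streak and organizer, was measured at 2.32, 1.35, 1.71 and 1.37 FPKM in day 0 RNA sample 1 and at 0.973, 0.776, 0.049 and 0.077 FPKM in RNA sample 2. It was listed at 0 in all 8 day 4 libraries, so no fold change is given. Its difference of 3.33 on the log2(FPKM + 0.1) scale (SE 0.61, limma adjusted p = 0.029) depends on the added 0.1. The call was lost in 7 of 16 alternative settings, with adjusted p-values up to 0.423. The 2 vials that stood apart were 0.072 of the mix 1 and 2 vials of the same RNA.

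The bHLH genes Mesp1 and Msgn1 were also listed at 0 in all 8 day 4 libraries. Mesp1, the earliest marker of cardiac mesoderm, had 8.18, 7.39, 7.62 and 7.31 FPKM in day 0 RNA sample 1 and 7.87, 5.64, 1.05 and 1.45 FPKM in RNA sample 2. Msgn1, which releases presomitic mesoderm cells from the streak, had 11.3, 12.4, 9.04 and 9.55 FPKM in RNA sample 1 and 7.96, 4.98, 0.108 and 0.348 FPKM in RNA sample 2. All day 0 values of both genes were above 0, and for both the 2 vials that stood apart were the lowest. Their differences, which depend on the added 0.1, were 5.82 for Mesp1 (SE 0.39, limma adjusted p = 0.0055) and 5.92 for Msgn1 (SE 0.62, limma adjusted p = 0.011).

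**Figure D2:**
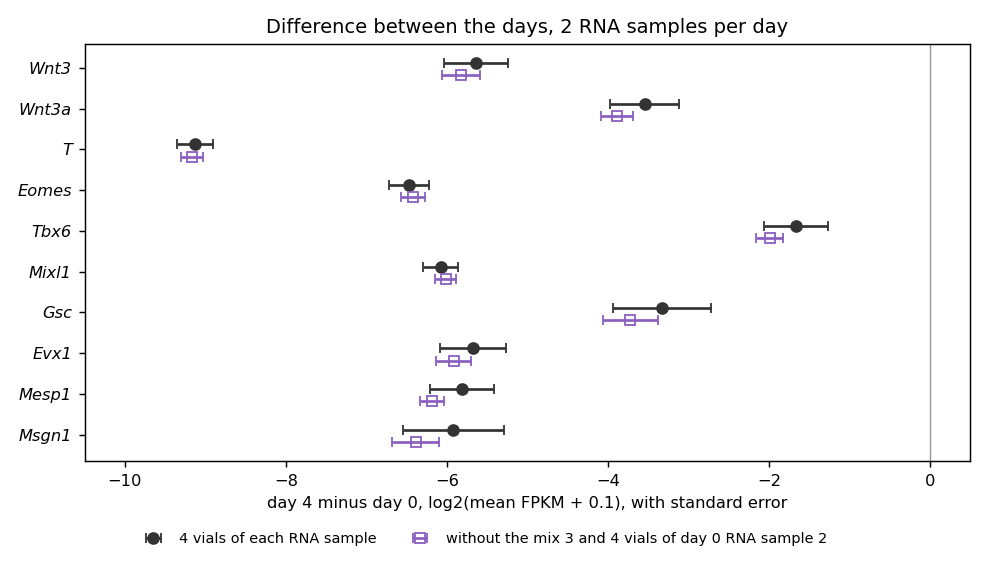
Day 4 minus day 0 on the log2(mean FPKM + 0.1) scale for the 10 genes, with the limma standard error, from all 4 vials of each RNA sample (filled) and without the mix 3 and 4 vials of day 0 RNA sample 2 (open). All 10 differences are below 0 in both fits, T is the lowest at -9.13 and Tbx6 the closest to 0 at -1.67.

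At day 0 the order of the mean levels, per transcript length, was T (67.0 FPKM), Mixl1 (39.4), Eomes (15.4), Evx1 (13.0), Wnt3 (12.8), Msgn1 (6.96), Mesp1 (5.82), Wnt3a (1.21), Gsc (1.08) and Tbx6 (0.315 FPKM). The 8 libraries of T and Mixl1 did not overlap, nor did those of Mixl1 and Eomes. From Eomes downwards the ranges of neighbours overlapped. Within single libraries, Wnt3 was above Msgn1, Mesp1 above Wnt3a and Gsc above Tbx6 in 8 of 8. Eomes was above Evx1 in 4 of 8 libraries, Evx1 above Wnt3 in 5, Msgn1 above Mesp1 in 5 and Wnt3a above Gsc in 6, so the order of these pairs was not the same in all libraries.

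The day 0 RNA samples also differed. RNA sample 1 was higher than RNA sample 2 for T (1.19-fold), Wnt3 (1.88-fold), Mesp1 (1.90-fold), Evx1 (1.94-fold), Wnt3a (2.30-fold), Tbx6 (2.71-fold), Msgn1 (3.16-fold) and Gsc (3.597-fold), and lower for Mixl1 (0.809-fold) and Eomes (0.83-fold). With only the vials of mixes 1 and 2 the ratios ran from 0.891 for Eomes to 2.095 for Gsc, with Msgn1 at 1.83, Wnt3a at 1.46 and T at 1.16. RNA sample 1 had the larger value for the same 8 genes, and their ratios were smaller than with all vials.

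Within day 0 RNA sample 2, the mix 3 and 4 vials had 0.035 of the Msgn1 level of the mix 1 and 2 vials, 0.045 of that of Tbx6, 0.18 of that of Wnt3a, 0.19 of that of Mesp1, 0.43 of that of Evx1 and 0.55 of that of Wnt3. T was nearly equal (0.90), and Mixl1 (1.19) and Eomes (1.13) were slightly higher there. The transcripts of the 10 genes have 48.5% (Mixl1) to 66.6% (Gsc) GC, and over the 10 genes, which share these vials, the log2 ratio went down with GC content (Pearson r = -0.72, Spearman rho = -0.82, n = 10 genes).

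Set beside genes within 1 percentage point of the same GC content, the log2 ratio of Wnt3 (-0.86) was near the median of 1185 such genes (-0.87), and so was that of Wnt3a (-2.05 beside -1.93). Eomes (0.17 beside a median of -1.13), T (-0.15 beside -0.79), Mixl1 (0.25 beside -0.14) and Evx1 (-1.20 beside -2.54) lay above the 75th percentile of genes of like GC, and Msgn1 (-4.32 beside -2.40) below the 25th. Msgn1 has the shortest transcript of the 10, with 613 bases. The part of GC content in the differences between the days was not tested.

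**Figure D3:**
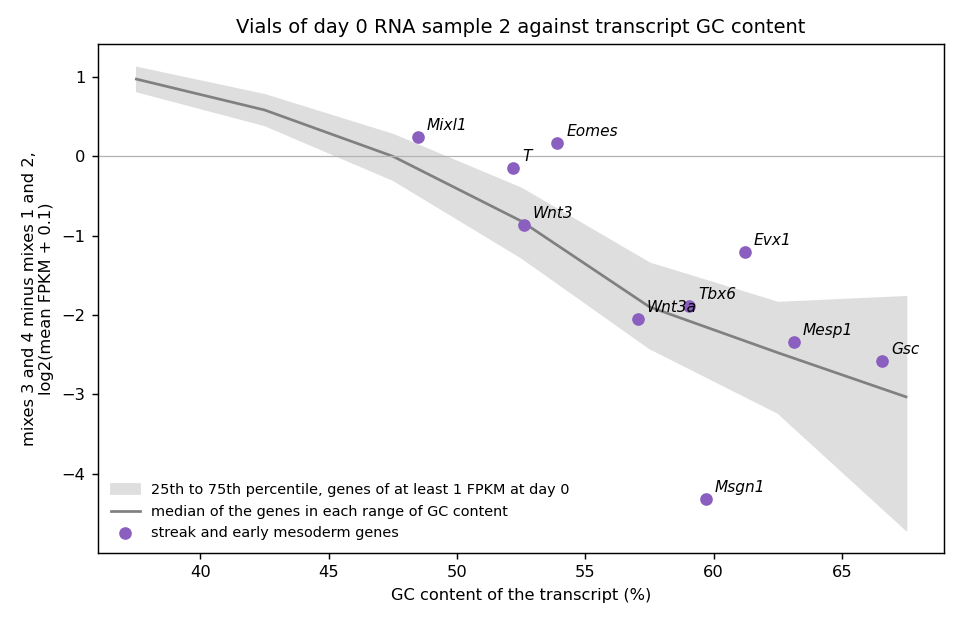
The log2(FPKM + 0.1) difference between the mix 3 and 4 vials and the mix 1 and 2 vials of day 0 RNA sample 2, against the GC content of the transcript, for the 10 genes (points) and for genes of at least 1 FPKM at day 0 (line, median; band, 25th to 75th percentile, drawn at the middle of each range of GC content). The median goes from 0.98 in the range of the lowest GC content to -3.03 in that of the highest, and Msgn1 lies below the band while Eomes, T, Mixl1 and Evx1 lie above it.

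The gene lists that follow were written with earlier results of these data known, so their counts beside all genes are not independent tests. Of the listed signals that induce or pattern the streak, 10 of 12 fell, 0 rose and 2 did not pass the test. The median difference was -4.10. Among all genes tested, 14.5% fell and 16% rose. The largest were Foxh1, the nuclear partner of Nodal signalling (69.4 FPKM at day 0 and 0.028 to 0.130 FPKM at day 4), Tdgf1, the Nodal co-receptor (51.4 FPKM and 0.239 to 0.551 FPKM), Fgf8, the FGF that cells need to leave the streak (9.42 FPKM and at most 0.028 FPKM), and Lefty2, a Nodal antagonist (13.7 FPKM and 0.311 to 0.501 FPKM). They fell by 8.57, 6.71, 6.33 and 4.79 on the log2 scale, with limma adjusted p-values of 0.0054, 0.0047, 0.0087 and 0.0047. The 2 that did not pass were Cer1, which was below 0.2 FPKM in every library, and the Wnt agonist Rspo3, which stood at 36.5 to 72.6 FPKM at day 0 and 30.7 to 35.5 FPKM at day 4. Without the 2 vials that stood apart, 10 fell and 0 rose, beside 33.5% and 27.1% of all genes.

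Among the beta-catenin dependent targets and effectors, 8 of 11 fell, 1 rose and 2 did not pass, with a median of -2.87. Over all genes tested, 14.5% fell and 16% rose. Cdx2, a posterior homeobox gene, had 18.9 to 60.3 FPKM in the day 0 libraries and 0.111 to 0.272 FPKM in those of day 4. It fell by 7.21 (limma adjusted p = 0.0047). Notum, a secreted Wnt inhibitor, Tcf7 and Cdx4 fell by 3.80, 3.10 and 3.01 (adjusted p = 0.022, 0.0069 and 0.0053). The effector Tcf7l2 rose by 1.04 (adjusted p = 0.043) from 0.610 to 1.31 and 1.42 FPKM in the 2 day 4 RNA samples. Without the 2 vials, 9 fell and 1 rose, or 81.8% and 9.09% of the list, beside 33.5% and 27.1% of all genes.

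The list of nascent and presomitic mesoderm genes was split. Of 18, 8 fell, 4 rose and 6 did not pass, with a median of -1.25, beside 14.5% and 16% of all genes that fell and rose. Hand1, a gene of extraembryonic and lateral mesoderm, Nkx1-2, a gene of the posterior streak region, and Dll3, a Notch ligand of the presomitic mesoderm, fell by 7.53, 6.59 and 3.55 (limma adjusted p = 0.0048, 0.0048 and 0.0062). The 4 that rose were Foxc2 (0.121 to 13.7 and 16.3 FPKM), Meox1 (0.164 to 2.66 and 2.90 FPKM), Foxc1 (0.967 to 7.27 and 8.30 FPKM) and Pdgfra (6.69 to 38.2 and 36.2 FPKM), given as the day 0 mean and the 2 day 4 RNA samples. Foxc1, Foxc2 and Meox1 are transcription factors of paraxial mesoderm and somites, and Pdgfra is a receptor of paraxial mesoderm and mesenchyme. They rose by 6.10 (Foxc2), 3.46 (Meox1), 2.90 (Foxc1) and 2.46 (Pdgfra), with adjusted p-values of 0.0047, 0.0065, 0.0077 and 0.0050. With the 2 vials left out, 11 fell and 4 rose, or 61.1% and 22.2% of the list, beside 33.5% and 27.1% of all genes. The share that rose was under that of all genes in this fit.

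**Figure D4:**
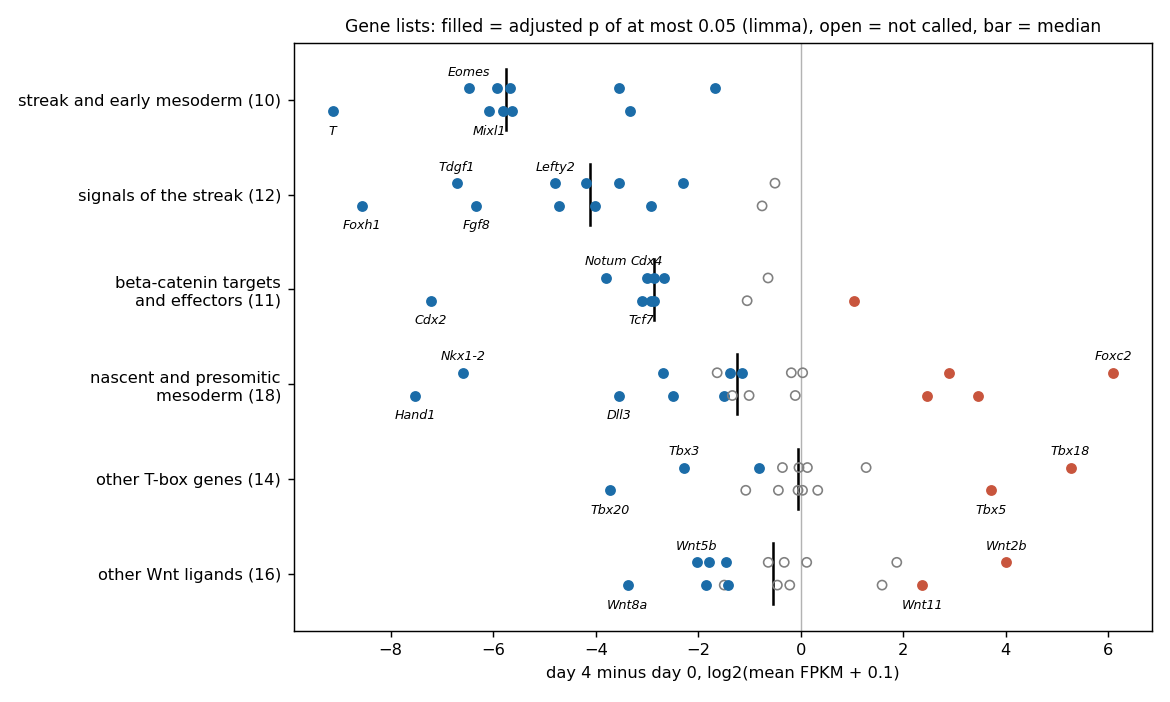
Day 4 minus day 0 on the log2(mean FPKM + 0.1) scale for the 10 genes and for 5 lists of related genes; each point is 1 gene, filled where the limma adjusted p was at most 0.05 (blue lower, red higher), and the vertical bar is the median of the list. The called genes of the first 2 rows, the 10 genes and the signals, all lie below 0, whereas the other 4 lists have called genes on both sides, with Tcf7l2 the one above 0 among the beta-catenin targets and effectors.

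The T-box family and the Wnt ligands were compared as families. Of the 14 other T-box genes, 3 fell (Tbx20, Tbx3 and Tbx21), 2 rose (Tbx18 and Tbx5) and 9 did not pass, with a median of -0.05. These are counts near those of all genes tested, of which 14.5% fell and 16% rose. T, Eomes and Tbx6 all fell, and their difference from the other T-box genes was not tested. Tbx20 and Tbx3, which act in the heart and elsewhere, fell by 3.72 and 2.28 (limma adjusted p = 0.0048 and 0.0056) from means of 21.1 and 19.3 FPKM. Tbx21 was at most 0.132 FPKM in every library. Tbx18, a gene of epicardium and somites, and Tbx5, a gene of heart and forelimb, rose by 5.26 and 3.71 (adjusted p = 0.0047 for both), from 0.029 and 0.026 FPKM to 4.35 and 5.41 FPKM and to 1.62 and 1.48 FPKM in the day 4 RNA samples. Without the 2 vials, 4 fell (with Tbx4 added) and 5 rose (with Tbx2, Tbx22 and Tbr1 added), beside 33.5% and 27.1% of all genes. Of these, Tbx22 was at most 0.040 FPKM and Tbr1 at most 0.088 FPKM in every library.

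Of the 16 other Wnt ligands tested, 6 fell, 2 rose and 8 did not pass, with a median of -0.55, beside 14.5% and 16% of all genes that fell and rose. Wnt8a, a ligand of the streak, was at 1.26 FPKM at day 0 and at most 0.084 FPKM at day 4, and fell by 3.38 (limma adjusted p = 0.010). Wnt5b fell by 2.03 (adjusted p = 0.032). Wnt2b rose by 4.01 (adjusted p = 0.0047) from 0.513 FPKM to 10.1 and 9.47 FPKM, and Wnt11 by 2.37 (adjusted p = 0.033) from 1.16 FPKM to 6.60 and 5.397 FPKM. At day 0 Wnt5a, a ligand that acts mostly without beta-catenin, had the highest mean of the ligands (40.1 FPKM), above Wnt5b (16.1) and Wnt3 (12.8 FPKM). At day 4 Wnt5a (10.5 and 11.7 FPKM) and Wnt2b were highest and Wnt3 was at 0.159 and 0.133 FPKM. Wnt7b is also the locus of a spike-in and was left out of the test. In the mix 4 vials it stood at 0.179 and 0.010 FPKM at day 0 and at 0.037 and 0.009 FPKM at day 4. Without the 2 vials that stood apart, 9 ligands fell and 4 rose (with Wnt4 and Wnt9a added), beside 33.5% and 27.1% of all genes.

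**Figure D5:**
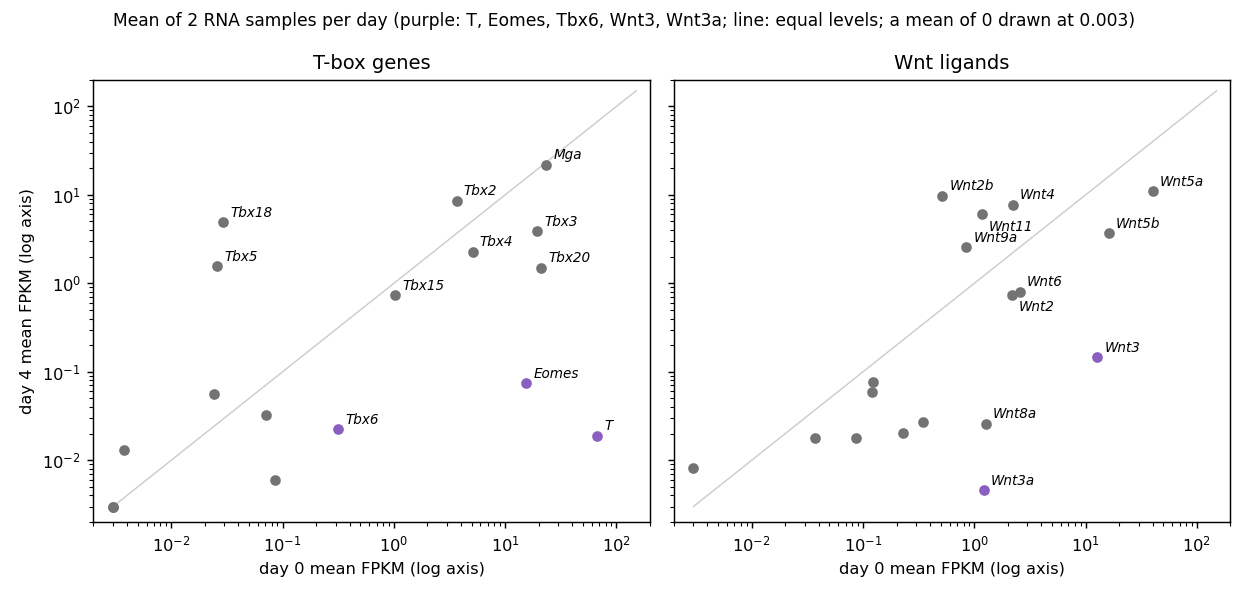
Mean FPKM at day 4 against mean FPKM at day 0 (both log axes, 2 RNA samples per day) for T-box genes (left) and Wnt ligands (right), with T, Eomes, Tbx6, Wnt3 and Wnt3a in purple, the line of equal levels in grey and means of 0 drawn at 0.003. T, Eomes, Wnt3 and Wnt3a lie far below the line, whereas Tbx18, Tbx5 and Wnt2b lie above it.

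Markers of other states moved between the same days, and their counts are read beside the 14.5% of all genes that fell and the 16% that rose. For counts without the 2 vials that stood apart, these shares were 33.5% and 27.1%. Of 7 pluripotency markers 6 fell, also without the 2 vials, and their sum went from 54.1 to 165 FPKM over the day 0 libraries to 8.31 to 13.7 FPKM at day 4. The labels give the cell type as embryonic stem cells, for which Pou5f1 is a defining marker. Pou5f1 had 87.3 and 37.2 FPKM in the day 0 RNA samples. The day 4 RNA samples had 1.04 and 0.693 FPKM. Of 5 genes that respond to RA, 3 rose (Rarb, Dhrs3 and Stra8) and 1 fell (Cyp26a1), both with and without the 2 vials that stood apart, while Hoxb1 did not pass (0.397 FPKM at day 0 and 0.403 FPKM at day 4, limma adjusted p = 0.946). Rarb, the RA receptor gene with an RA element in its promoter, went from 0.195 FPKM to 106.4 and 107.5 FPKM. Cyp26a1, the RA-degrading enzyme, fell from 50.7 FPKM to 8.43 and 9.34 FPKM. It is also counted among the genes that fell in the list of nascent and presomitic mesoderm.

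Of 7 neural markers, 3 rose (Dcx, Pax6 and Neurog2) and 2 fell (Tubb3 and Sox1), and the sums overlapped (23.3 to 44.5 FPKM at day 0 and 23.3 to 27.0 FPKM at day 4). Sox1 and Neurog2 stayed at or below 0.135 FPKM in every library. Of 6 endoderm markers, 3 rose (Gata6, Gata4 and Foxa2) and 1 fell (Sox7), with sums of 17.2 to 20.8 and 75.1 to 78.0 FPKM. Gata6 and Gata4 made up most of the day 4 sum, with means of 54.4 and 18.6 FPKM. Foxa2 had a day 4 mean of 0.825 FPKM, and Sox17 and Ttr did not pass. Of 5 cardiac and muscle markers 2 fell (Actc1 and Myh6), with sums of 1.38 to 5.80 and 1.14 to 3.09 FPKM, and Nkx2-5 was listed at 0 in every day 4 library. Of 5 endothelial and blood markers 2 fell (Tal1 and Gata1), with sums of 45.8 to 84.8 and 72.9 to 101 FPKM. The largest part of these sums was the embryonic globin gene Hbb-bh1, which had 33.7 FPKM at day 0 and 69.7 FPKM at day 4 and did not pass (limma adjusted p = 0.057). When the 2 vials that stood apart were left out, 33.5% of all genes fell and 27.1% rose. In that fit 4 neural markers rose (with Map2 added) and 2 fell, and 4 endoderm markers rose (with Ttr added) and 1 fell. Of the cardiac and muscle markers 3 fell (with Nkx2-5 added). Of the endothelial and blood markers 3 fell (with Cdh5 added) and 1 rose (Hbb-bh1). The part of these cell types in the differences of the 10 genes was not tested.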

How the data were processed

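RNA of R1-derived EBs was measured before (day 0) and after (day 4) RA, with 2 RNA samples per day and 4 vials each. Per the labels and the methods, stranded RiboZero libraries were made. The authors aligned read pairs with Bowtie2 (2.1.0) to RefSeq transcripts (mm10) plus the spike-ins, estimated transcripts with RSEM (1.2.18), and deposited FPKM scaled by a TMM factor per library. The RNA sample of each vial comes from the supplementary sample table. All 16 columns were used. Estimates spread reads over overlapping transcripts, and no fragment number per transcript is given, so intervals are not given and precision is limited by the 2 RNA samples per day.

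FPKM were summed over the RefSeq rows of a gene, by accession (98.6% of rows had a symbol in the GRCm38.p6 table). The 48 spike-in rows and 1 row of 1700047L14Rik were left out, as were genes at 0 in all libraries. The mean FPKM of the 4 vials, plus 0.1, was compared on the log2 scale with limma (3.58.1, lmFit and eBayes with a trend, R 4.3.3), 2 against 2, with Benjamini-Hochberg adjustment over 20553 genes and a threshold of 0.05. A difference on this scale understates the change of low genes. An exact permutation test of 2 against 2 could not reach the threshold and was not used. GC content and length are those of GENCODE M21 transcripts (97.1% of genes). Figures and tables were made with Python 3.11.15, pandas 2.3.3 and matplotlib 3.10.9. In a simulation over 20553 genes, all 200 genes changed by 2 or 4 on the log2 scale were recovered, with 6.54% false calls. Its levels and spread were modelled on the day 4 RNA samples only, and the spread between the day 0 RNA samples was not simulated. Changed genes were drawn from those above 0 on the log2(FPKM + 0.1) scale at day 4, where all 10 genes are lower. The recovery therefore does not apply to the 10 genes.

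According to the paper the whole procedure was done again to give the second replicate, so a number marks 1 run of it on both days. The differences between replicate 1 and replicate 2 were correlated between the days (r = 0.75 over 11605 genes, and 0.59 with the vials of mixes 1 and 2 only), so a fit with the replicate as a block was run beside the unpaired one. Alternatives varied the pseudocount, the filter, the averaging, the scaling, the trend, the vials and the RNA samples. The 10 genes are all named, and from each list the 4 called genes with the largest difference and those needed for small counts. In the list of genes that respond to RA, 1 gene is not reported here. Members and lists were chosen with earlier results of these data known.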

Additional observations from a re-analysis of the deposited data

Results flagged for a closer look

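Among 50 sets of 4 vials or 8 libraries of the 10 genes, 4 had 1 value far from the others by Dixon's ratio, where chance gives about 1 in 20. T was highest in the mix 1 vial of day 0 RNA sample 1, at 78.4 FPKM with the next vial at 71.0 FPKM. T was at 0.037 FPKM in the mix 3 vial of day 4 RNA sample 1 (next 0.020 FPKM) and listed at 0 in the mix 4 vial of day 4 RNA sample 2 (next 0.019 FPKM). Wnt3a was highest among the 8 day 4 libraries in the mix 2 vial of RNA sample 1, at 0.019 FPKM (next 0.009 FPKM). The last 3 differ by 1 or 2 of the smallest steps of the table.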

How the results depend on the processing

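All 10 genes were lower at day 4 under every alternative in which they were tested, and 126 of 168 alternative values kept their call, with 42 losing it. The number of genes that fell, 10, was 7 with a pseudocount of 1, 7 with a minimum mean of 1 FPKM (which left out Gsc, Tbx6 and Wnt3a), 8 without a filter and 8 with the mean of log2 values, and 10 with a replicate block. It was 4 with only the vials of mixes 3 and 4 and 3 with only those of mix 4 (T, Mixl1 and Eomes). Over all genes tested, the number that fell was 2972 of 20553 in the main fit and 2106 with a pseudocount of 1. It was 2062 of 11605 genes with the minimum mean and 1639 of 24238 without a filter. With the mean of log2 values 2039 fell, with the block 5963, with mixes 3 and 4 337 and with mix 4 366, of 20553 genes each. Leaving out 1 RNA sample left a day with a lone sample, which was assumed to vary like the other day. Without either day 0 sample the calls were kept, but only the spread between the day 4 samples was left. Gsc, Mesp1 and Msgn1 were listed at 0 in all 8 day 4 libraries, so they had no spread there. Without either day 4 sample only the spread between the day 0 samples was left, and calls were lost for all genes tested. T kept differences of -9.01 and -9.26 without day 0 RNA samples 1 and 2. Without day 4 RNA samples 1 and 2 its differences were -9.19 and -9.08.

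The number of all genes called, 6255, was 4156 with the minimum of 1 FPKM, 10583 with the replicate block, 11612 with mixes 1 and 2, 1331 with mixes 3 and 4, 1412 with mix 4, 12448 without the 2 vials that stood apart (added after seeing the data), and 0 to 9189 with 1 RNA sample left out. The number of the 10 genes that rose was 0 throughout. The fragments behind low values are unknown, which limits Gsc, Tbx6 and Wnt3a most. Apart from the number of all genes called, the block changed no call of the 10 genes.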
